A study of Mus musculus with 8 samples.

Results

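Slc7a2 encodes CAT-2, a plasma membrane carrier of arginine, lysine and ornithine. It is described here with 9 related genes: the other cationic amino acid transporters Slc7a1 and Slc7a3, the light chains Slc7a5, Slc7a6, Slc7a7, Slc7a8, Slc7a10 and Slc7a11, and their heavy chain Slc3a2. The 10 genes are 10 of the 14860 that a row of the array names by a single symbol, and each had 1 row. The set was chosen from the comparison of ursolic acid with control itself: Slc7a2 had the 20th smallest p of all 16755 rows, and the other 9 were added by family. The values of the 10 genes in that comparison are therefore given as a description. Where counts of genes past a threshold include them, nothing is read from these counts about the carriers.

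The study measured mRNA in gastrocnemius, the large calf muscle, of male C57BL/6 mice aged 12 weeks. Controls ate plain chow, and the other group ate the same chow mixed with 0.27% ursolic acid, a triterpenoid of fruit peel, during 5 weeks. Each sample was RNA pooled from 2 mice, with 4 control and 4 ursolic acid samples, and no sample carried any other agent or allele. The labels do not say whether a mouse entered more than 1 pool, so the errors measure the spread between these pools. Samples were grouped by their titles, and the treatment field gives the same groups. A free-text description goes against the title for 4 of the 8 samples, control samples 2 and 4 and ursolic acid samples 1 and 3, so the carriers' differences are also shown within each description. Array medians ran from 5.55 to 5.61 on the log2 scale. Control sample 1 stood somewhat apart, with a mean Spearman correlation of 0.977 with the other arrays. Markers of muscle fibres averaged 10.87 to 10.97 in every array, with Ckm, muscle creatine kinase, at 10.92 to 11.22. The Myh4, Myh2, Myh1 and Myh7 genes were not analysed here.

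The proteins of these genes move amino acids across the cell membrane in 2 ways. CAT-1, CAT-2 and CAT-3 (Slc7a1, Slc7a2, Slc7a3) are single glycosylated proteins that let arginine, lysine and ornithine pass, a route known as system y+. The light chains of the other members work only when joined by a disulphide bond to the heavy chain 4F2hc, or CD98, from Slc3a2, and exchange an amino acid inside the cell for one outside. Arginine that enters the cell feeds the synthesis of nitric oxide, creatine, ornithine and polyamines. Slc7a2 is known to be transcribed in liver and skeletal muscle and to be induced in activated macrophages. Its 2 splice forms, CAT-2A and CAT-2B, differ in their affinity for arginine, and a value per gene does not separate them.

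Of the 10 carriers Slc7a2 alone differed by a large amount. Its log2 expression values were 6.90, 6.70, 6.60 and 6.76 in control samples 1 to 4, and 7.84, 7.53, 7.51 and 7.19 in ursolic acid samples 1 to 4. The groups did not overlap: the lowest ursolic acid value lay 0.296 above the highest control value. The means were 6.74 ± 0.12 (SD, n = 4) in control and 7.52 ± 0.27 (SD, n = 4) with ursolic acid. The difference was 0.78 ± 0.13 (SE from limma's moderated variance), or 1.72-fold. In absolute size it ranked 13 among the 16755 rows. The spread within the ursolic acid group, 0.65 from sample 4 to sample 1, was itself wide against 0.30 among controls. With each sample left out in turn the difference ran from 0.67 to 0.89.

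The difference in Slc7a2 was present within both description classes. Among the 4 samples described as untreated it was 0.93 ± 0.17 (SE), and among the 4 described as treated it was 0.63 ± 0.13. In the 4 samples whose title and description concur it was 0.62 ± 0.16. When the arrays were regrouped by the description it became −0.16 ± 0.27, so the value depends on the titles being right. By the description 2098 rows had an unadjusted limma p below 0.05, against 1185 by the titles. The smallest limma adjusted p was 0.344 by the description against 0.0845 by the titles, and 0 rows passed 0.05 by either. Deviations from the group means correlated, over all rows, at −0.0219 to 0.198 between control and ursolic acid samples of the same description, and at −0.21 to 0.0287 between those of different description. The fits within a description class and in the concordant samples hold 2 samples per group.

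**Figure D1:**
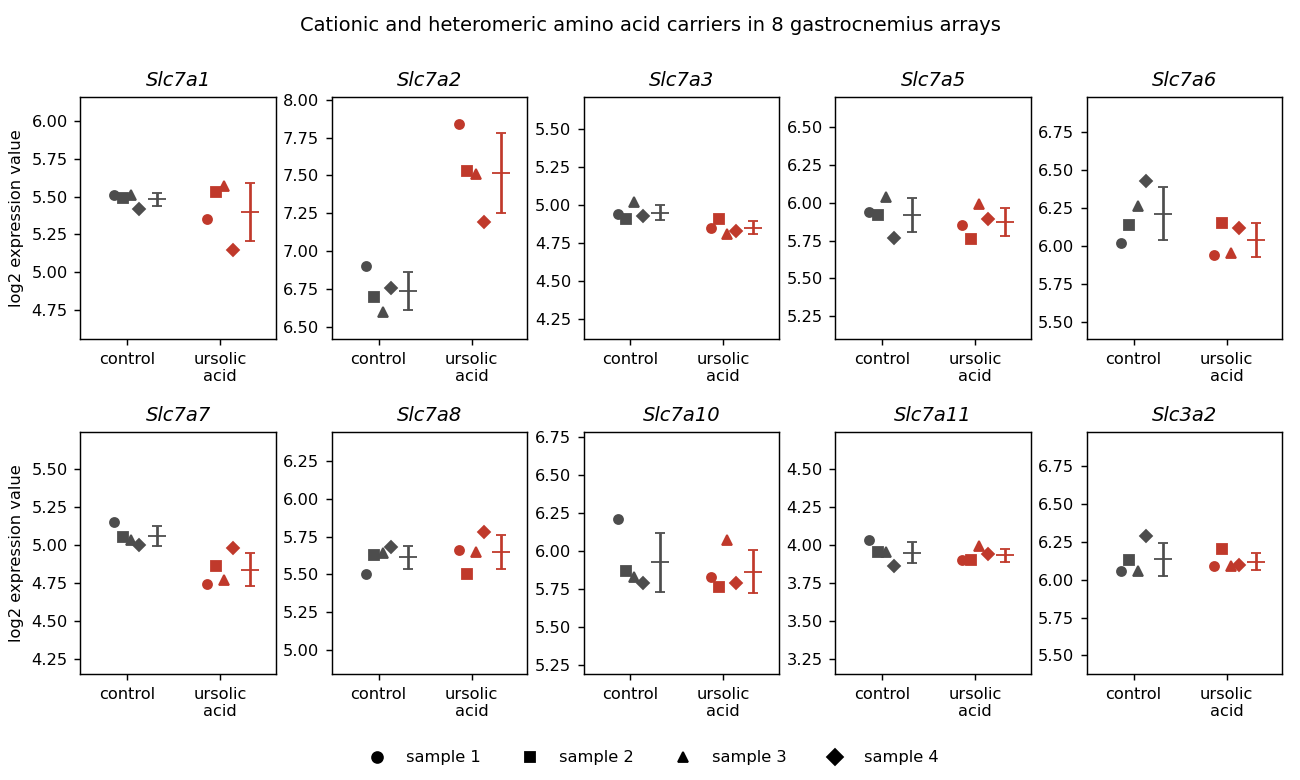
Log2 expression values of the 10 carrier genes in each of the 8 arrays, control in grey and ursolic acid in red, with marker shapes for sample numbers and the mean with its SD beside the points. Every panel spans the same number of log2 units; the 4 ursolic acid values of Slc7a2 (7.19 to 7.84) lie above all control values (6.60 to 6.90), while the groups of the other genes overlap or nearly touch.

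The other carriers of system y+ showed no such difference. Slc7a1, which encodes the widely expressed CAT-1, had values of 5.51, 5.49, 5.51 and 5.42 in the controls and 5.35, 5.53, 5.57 and 5.15 with ursolic acid. The controls lay close together, and the ursolic acid samples lay on both sides of them, sample 4 being the lowest of all 8. The Slc7a1 difference was −0.08 ± 0.09 (SE), and 0.00 without ursolic acid sample 4. Ursolic acid sample 4 was thus the lowest of its group for both Slc7a1 and Slc7a2. Slc7a3, which encodes CAT-3, known mainly from brain, had values of 4.94, 4.91, 5.02 and 4.93 in control and 4.85, 4.91, 4.81 and 4.83 with ursolic acid. The groups were 0.002 apart, and the difference in Slc7a3 was −0.10 ± 0.06.

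Slc7a6 and Slc7a7 encode y+LAT2 and y+LAT1, the light chains that export arginine or lysine in exchange for a neutral amino acid and sodium. Slc7a7, whose human gene is mutated in lysinuric protein intolerance and which macrophages use, had the lowest difference of the set. Its values were 5.15, 5.05, 5.03 and 5.00 in control and 4.74, 4.86, 4.77 and 4.98 with ursolic acid. The groups did not overlap, though by only 0.017, and ursolic acid sample 4 lay next to the controls. The Slc7a7 difference was −0.22 ± 0.07 (SE), or 0.859 of the control level, and it was −0.33 ± 0.11 in samples described as untreated and −0.10 ± 0.09 in those described as treated. Slc7a6 had values of 6.02, 6.14, 6.26 and 6.43 in control and 5.94, 6.15, 5.95 and 6.12 with ursolic acid. The groups overlapped, and control sample 4 was the highest array. The Slc7a6 difference was −0.17 ± 0.10, and −0.10 without control sample 4.

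Slc7a5 and Slc7a8 encode LAT1 and LAT2, which take up leucine and other large neutral amino acids in exchange for glutamine. Slc7a5 had values of 5.94, 5.92, 6.04 and 5.77 in control and 5.85, 5.76, 5.99 and 5.89 with ursolic acid. Slc7a8 had values of 5.50, 5.63, 5.64 and 5.68 in control and 5.66, 5.50, 5.65 and 5.78 with ursolic acid. The groups overlapped over most of their range for both genes. The differences were −0.04 ± 0.08 (SE) for Slc7a5 and 0.04 ± 0.08 for Slc7a8, about the size of the spread within a group or less.

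The remaining light chains carry small neutral amino acids and cystine. Slc7a10 encodes asc-1, a carrier of serine, glycine and alanine known from brain and fat. Its values were 6.21, 5.87, 5.83 and 5.79 in control and 5.83, 5.76, 6.07 and 5.79 with ursolic acid. Control sample 1 and ursolic acid sample 3 were the high arrays, and the groups overlapped. The Slc7a10 difference was −0.06 ± 0.11 (SE), and 0.03 without control sample 1. Slc7a11 encodes xCT, which imports cystine for glutathione synthesis in exchange for glutamate. Its values were 4.03, 3.95, 3.95 and 3.86 in control and 3.90, 3.90, 3.99 and 3.94 with ursolic acid. The arrays lay within 0.18 of each other, and the Slc7a11 difference was −0.01 ± 0.06.

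Slc3a2, the heavy chain that all these light chains share, had values of 6.06, 6.13, 6.06 and 6.29 in control and 6.09, 6.20, 6.09 and 6.10 with ursolic acid. The ursolic acid values lay inside the range of the controls. The Slc3a2 difference was −0.01 ± 0.07 (SE), with 0.04 ± 0.10 in samples described as untreated and −0.06 ± 0.10 in those described as treated.

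**Figure D2:**
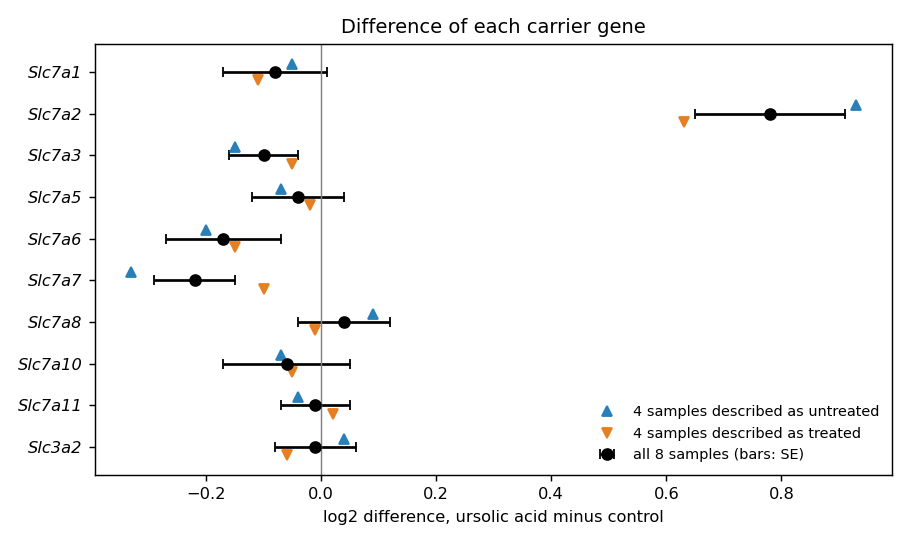
Log2 difference, ursolic acid minus control, of each carrier gene over all 8 samples (black, bars show the SE), within the 4 samples described as untreated (blue) and within the 4 described as treated (orange). Slc7a2 lies at 0.78, with 0.93 and 0.63 in the description classes, and the other 9 genes lie between −0.22 and 0.04 over all samples.

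Among the 9 members other than Slc7a2, differences ran from −0.22 to 0.04, with SEs of 0.06 to 0.11. The median over the 10 was −0.05, against −0.01 over all rows. As deposited, 2 of the 10 members were higher and 8 lower, but centring each array on its median gave 4 higher and 6 lower, and quantile normalization gave 3 and 7. The sign of a small difference thus depended on the scaling, Slc3a2 and Slc7a11 turning positive under median centring. The groups did not overlap in 1 member above control, where 2.66% of all rows were of this kind, and in 2 below control, against 1.83% of all rows. The absence of overlap in Slc7a3 and Slc7a7 was lost under median centring and under quantile normalization, while in Slc7a2 it remained, with gaps of 0.353 and 0.178. By limma, 0 of the 10 members and 0% of all rows passed an adjusted p of 0.05. An unadjusted p below 0.05 was reached by 1 member in each direction, against 4.08% and 3.0% of all rows. The contrast chose Slc7a2, so these counts are no evidence about the set. The files give no signal above background, and 4 members, Slc7a1, Slc7a3, Slc7a7 and Slc7a11, had a mean below the median level of all rows.

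Among the carriers, Slc7a11 is a known target of ATF4, the transcription factor that cells make when amino acids are short. The sequence before its start is shown because it holds the letters of the amino acid response element in both orientations. The 120 bases end at the base before the transcription start, at chr3:50443614-50443733 on the minus strand of GRCm38.p6, from RefSeq, with the matches in capitals.
Slc7a11: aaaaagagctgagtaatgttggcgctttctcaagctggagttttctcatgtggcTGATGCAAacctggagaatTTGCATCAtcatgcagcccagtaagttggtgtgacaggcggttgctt
The motif TGATGCAA was searched on both strands in the 250 bases before each start, and TTGCATCA is the same motif on the other strand. The matches begin 66 and 47 bases before the start, with 11 bases between them and no overlap. Of 32851 promoter windows, 0.791% held a match, and 2 windows held more than 1. For 7 of the 10 members a window was at hand, 13 windows in all. Slc7a7 held 1 match, 243 bases before 1 of its 5 starts, and Slc7a1, Slc7a6, Slc7a8, Slc7a10 and Slc3a2 held none. Only this exact string was searched, so other forms of the element and sites outside these bases were not looked for. Slc7a2, Slc7a3 and Slc7a5 were not in the promoter table. A match is a string of letters, and none of these windows was measured.

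Genes that act with the carriers were listed by function and read in the same limma fit. Of 149 genes on 7 lists, 124 were measured, and none of them passed an adjusted p of 0.05 over all rows. An unadjusted p below 0.05 was reached by 4 with higher and 4 with lower values, 3.23% each, which is near the 4.08% and 3.0% of all rows. Their median difference was 0.00.

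Of the 8 genes listed as further Slc7 and Slc3 relatives, 0 passed at either threshold, with differences of −0.14 to 0.10. The kidney carrier Slc7a9, the mouse carrier Slc7a12 and Slc7a13 had differences of −0.11, −0.14 and −0.11. Slc7a6os, which neighbours Slc7a6 on the opposite strand and is no carrier, had one of 0.10. The smallest limma adjusted p among them was 0.79.

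Of 40 amino acid carriers of other families, 0 passed an adjusted p of 0.05, while an unadjusted p below 0.05 was reached by 1 with higher and 3 with lower values. Slc6a14, a carrier that takes both neutral and cationic amino acids, had a difference of 0.18 ± 0.07 (SE). Its values were 3.21 to 3.43 in control and 3.48 to 3.55 with ursolic acid, near the low end of the array's scale. The glutamine carrier Slc38a3 had a difference of −0.14 ± 0.06, with 6.83 to 6.97 in control against 6.73 to 6.79. Slc43a1, or LAT3, which carries leucine without a heavy chain, had one of −0.16 ± 0.07, and Slc38a11 one of −0.23 ± 0.09. The groups overlapped in both. Slc38a11 was also low, at 3.97 to 4.32 in control and 3.75 to 3.99 with ursolic acid. Its difference was −0.15 ± 0.08 without control sample 1. The adjusted p of these 4 genes by limma ran from 0.652 to 0.703.

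Of 18 measured genes of arginine, nitric oxide and creatine metabolism, 0 passed at either threshold, with differences of −0.12 to 0.18. The list is not limited to enzymes that use arginine. Nos3, the endothelial nitric oxide synthase, had a difference of −0.11 ± 0.07 (SE), and Prmt5, which methylates arginine residues, one of 0.16 ± 0.09. Ckm had one of 0.13 ± 0.07, and Azin2, a regulator of ornithine decarboxylase and its antizyme, one of −0.12 ± 0.08. Ass1, Ddah1, Agmat and Agxt2 were not analysed here.

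Of 8 polyamine genes measured, Smox, the oxidase that turns spermine into spermidine, had a difference close to that of Slc7a2, 0.81 ± 0.12 (SE), with a limma adjusted p of 0.0845. Its values were 9.08 to 9.32 in control and 9.77 to 10.27 with ursolic acid. The other 7 polyamine genes did not pass an unadjusted p of 0.05. Among them Oaz1 lay at 2.42 to 3.34, near the low end of the array's scale, where a change could be missed. Azin1, the antizyme inhibitor, had a difference of 0.18 ± 0.09, the spermine synthase Sms one of −0.11 ± 0.11, and Sat2 one of −0.08 ± 0.16. Both changed sign between the description classes, Sms from −0.29 in samples described as untreated to 0.08 in those described as treated, and Sat2 from 0.27 to −0.44. The Sms difference was 0.01 without ursolic acid sample 3, and that of Sat2 was −0.24 without control sample 1. Odc1, Sat1, Paox and Amd1 were not analysed here. Smox was, like Slc7a2, among the rows with the smallest p, so its likeness to Slc7a2 is a description.

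Genes of lysine, cystine and glutathione metabolism numbered 11 measured, of which 0 passed an adjusted p of 0.05 and 1 was higher at an unadjusted p of 0.05. This was Aldh9a1, an aldehyde dehydrogenase of carnitine synthesis from trimethyllysine, with a difference of 0.26 ± 0.07 (SE) and a limma adjusted p of 0.408. Gclc, the catalytic subunit of the first enzyme of glutathione synthesis, had one of 0.12 ± 0.10. Chac1, which degrades glutathione, had one of 0.18 ± 0.15, and Bbox1, the last enzyme of carnitine synthesis, one of −0.09 ± 0.09.

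Of 25 genes of amino acid sensing, 0 passed an adjusted p of 0.05, and an unadjusted p below 0.05 was reached by 1 in each direction. Wdr59, a subunit of the GATOR2 complex upstream of mTORC1, had a difference of 0.18 ± 0.06 (SE), with 5.90 to 6.03 in control against 6.07 to 6.21. Castor2, of the family of cytosolic arginine sensors, had one of −0.26 ± 0.11, with groups that overlapped. Castor2 has 2 rows, and only the row with the higher mean is given. The adjusted p by limma was 0.546 for Wdr59 and 0.671 for Castor2. Sesn2, a leucine sensor, had a difference of −0.19 ± 0.10, and −0.10 ± 0.07 without control sample 1.

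ATF4 and its targets, among which Slc7a1, Slc7a5, Slc7a11 and Slc3a2 are known to belong, gave 0 of 18 genes at either threshold, with a median difference of 0.02. Atf4 had a difference of 0.15 ± 0.07 (SE), with 8.07 to 8.24 in control and 8.24 to 8.45 with ursolic acid. Mthfd2, a mitochondrial folate enzyme, had one of 0.21 ± 0.10, and Fgf21, a hormone made in stressed muscle, one of −0.26 ± 0.12. The Fgf21 difference was 0.02 ± 0.13 in samples described as untreated and −0.53 ± 0.12 in those described as treated. The limma adjusted p of Atf4, Mthfd2 and Fgf21 ran from 0.731 to 0.739. Of the 18 genes 11 were higher and 7 lower. The 4 carriers known as targets lay between −0.08 and −0.01.

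**Figure D3:**
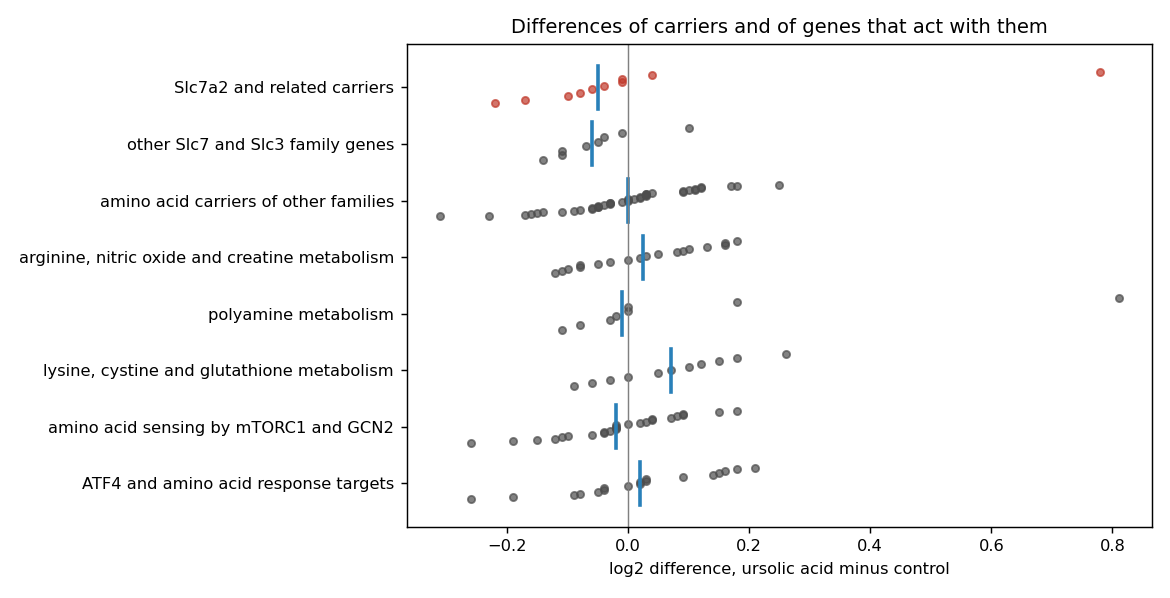
Log2 differences, ursolic acid minus control, of the 10 carriers (red) and of the measured genes of 7 lists of related function (grey), 1 point per gene, with blue bars at the median of each row. Slc7a2 at 0.78 and Smox at 0.81 lie apart from all other points, which fall between −0.31 and 0.26.

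Macrophage markers were, like Slc7a2, higher with ursolic acid. All 13 measured markers had higher means with ursolic acid, by a median of 0.34. At an unadjusted p of 0.05, 10 of them were higher, against 4.08% of all rows, though limma passed 0 at an adjusted p of 0.05. The list was chosen with earlier results of these data known, so this count is a description and no test of enrichment. It holds Ctss, Cd74 and Tyrobp, whose limma adjusted p of 0.0845 was the smallest of all rows. They shared this value with other rows, Smox among them. The mean level of the 13 markers was 5.67 to 5.81 in the control arrays and 5.99 to 6.17 with ursolic acid. Ctss, Tyrobp, Mrc1, Cd74 and Cd163 had differences of 0.71, 0.69, 0.65, 0.43 and 0.42, and the lowest was Mertk at 0.03. The lowest single value of a marker was 4.72, and the values do not say whether a marker was detected. Lyz1 and Lyz2 were not analysed here.

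Within the ursolic acid group the order of the samples was not the same. Sample 4 had the lowest Slc7a2 value (7.19) and the highest mean of macrophage markers (6.17), and sample 1 had the highest Slc7a2 value (7.84) with a marker mean of 6.10. Among controls, sample 3 was the lowest for both Slc7a2 (6.60) and the marker mean (5.67). The highest control was sample 1 for Slc7a2 (6.90) and sample 4 for the marker mean (5.81). Whether cells other than muscle fibres account for the value of Slc7a2 was not tested, and in RNA of whole muscle more cells of a type and more RNA per cell cannot be told apart.

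Fibroblast markers were also higher in all 7 measured genes, by a median of 0.13. Of these, 2 genes, Lum and Dpt, reached an unadjusted p below 0.05 by limma, against 4.08% of all rows. This list too was chosen with earlier results of these data known, so the count is a description. Dpt, the matrix protein dermatopontin, had a difference of 0.19, with groups that overlapped and a limma adjusted p of 0.703. The mean level of the fibroblast markers ran from 8.05 to 8.19 in control and was 8.32, 8.09, 8.32 and 8.47 in ursolic acid samples 1 to 4. Lum, the proteoglycan lumican, had the highest difference, 0.61 ± 0.11 (SE), with a limma adjusted p of 0.15, and Col1a1 the lowest, 0.05 ± 0.11. The part of these cells in the Slc7a2 value was not tested either. The median differences of the other lists were small, at 0.03 for lymphocyte markers, −0.09 for endothelial, −0.02 for smooth muscle and pericyte, −0.02 for adipocyte, 0.02 for Schwann and 0.00 for muscle fibre markers. In the fibre list 1 of 10 genes, the calcium release channel Ryr1, was lower at an unadjusted p of 0.05, with a difference of −0.20 and a limma adjusted p of 0.592. No gene of the other lists passed that threshold. Red cell markers had 2 measured genes, Slc4a1 and Alas2, with differences of 0.01 and −0.02.

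**Figure D4:**
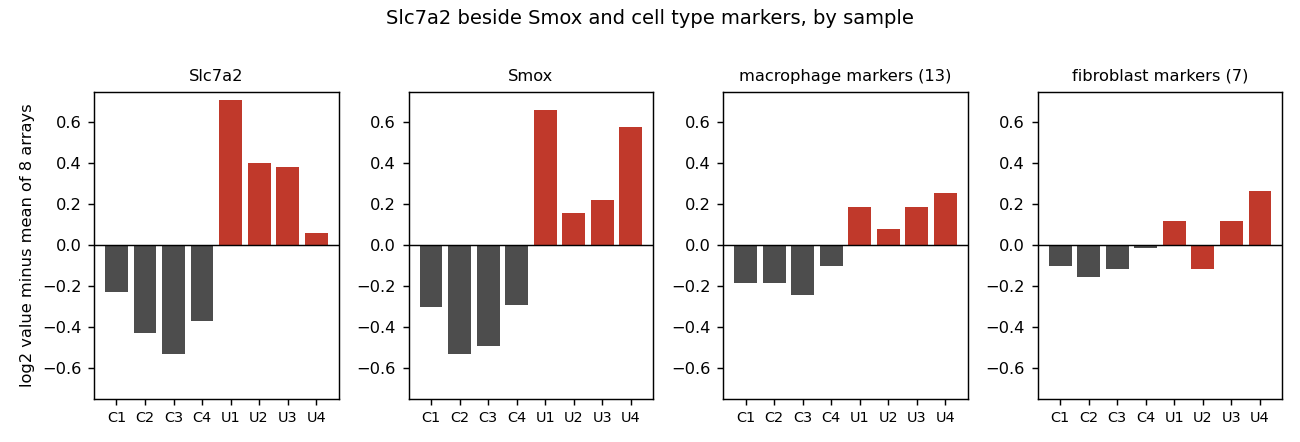
Log2 value minus the mean of the 8 arrays for Slc7a2, Smox, the mean of 13 macrophage markers and the mean of 7 fibroblast markers, in control samples 1 to 4 (C1 to C4, grey) and ursolic acid samples 1 to 4 (U1 to U4, red). U4 has the lowest ursolic acid bar for Slc7a2 and the highest for the macrophage and fibroblast markers.

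Genes with a pattern like that of Slc7a2 were found by the mean absolute difference of log2 values over the 8 arrays, after each gene's own mean was subtracted. Over 13619 other named genes the median distance was 0.4, and the 5 nearest were Socs2, Smox, C3ar1, Tyrobp and Cfap61, at 0.146, 0.159, 0.16, 0.164 and 0.165. Socs2, an inhibitor of growth hormone signalling, had values of 7.42, 6.94, 6.86 and 7.01 in control and 7.78, 7.49, 7.77 and 7.65 with ursolic acid. Socs2, C3ar1 and Tyrobp shared with Slc7a2 a control sample 1 that was the highest of its group and a control sample 3 that was the lowest. In Smox and Cfap61 control sample 2 was the lowest. C3ar1, the receptor of complement C3a, had values of 5.47 to 5.71 in control against 6.18 to 6.45. Cfap61, a gene of cilia, had its highest values in ursolic acid samples 1 and 2, 4.90 and 4.59, against 4.05 and 4.04 in samples 3 and 4. The other 9 carriers lay 0.393 to 0.5 from Slc7a2, about as far as the median gene. The distance contains the contrast that chose Slc7a2, so nearness here is a description of these 8 arrays.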

How the data were processed

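Gastrocnemius RNA of 8 pooled samples was measured on 1-colour arrays. The deposited values are log2 expression values made by the authors with RMA (background correction, normalization between arrays and summary of probes) on build mm9, per the submitters' processing notes. The version used and whether rows were filtered were not given in the sources used here. Base 2 was inferred from the range of values. The platform annotation gives a single symbol for 14996 of the 16755 rows. Symbols were updated by gene number from RefSeq (GRCm38.p6), where 14941 matched, and a gene with several rows was represented by its row with the highest mean.

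A model with 4 arrays per group and no covariate or filter was fitted to all rows (lmFit and eBayes of limma 3.58.1, R 4.3.3), and two-sided p-values were adjusted by Benjamini-Hochberg across the rows, with a threshold of 0.05. Printed differences are ursolic acid minus control. The method was also run on simulated data with independent noise in each array. Residuals of the real arrays correlated at −0.21 to 0.198 between control and ursolic acid samples. The simulation did not include such correlation, so it does not show how the method performs under it. The carriers and gene lists were chosen with earlier results of these data known. The genes named were all 10 carriers, up to 4 genes with the smallest p in each pathway list, the 5 genes nearest to Slc7a2, and in each marker list the lowest and highest difference, with up to 4 more for macrophages. Dpt was named after its value was seen. Alternatives were median centring, quantile normalization, a filter on low rows, other variance models, array weights, the replicate number as a block, uses of the description and each sample left out. Samples with the same number in both groups had residual correlations of 0.133, 0.0826, 0.018 and 0.186. No arrays were identical. Arrays have no depth, and the small number of arrays limits precision.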

Additional observations from a re-analysis of the deposited data

Results flagged for a closer look

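Values of 4 samples were examined 154 times, for each named gene, each list mean and 1 array measure in each group. In 14 of these cases a single sample lay far from the rest, and chance alone flags about 1 in 20. In parentheses stands the distance from that sample to its nearest neighbour as a share of the whole range.

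Among the carriers this held for Slc3a2 only, whose ursolic acid sample 2 lay at 6.20 against 6.09 to 6.10 (0.903). Among ursolic acid samples, sample 1 stood apart in Slc7a12 (0.857) and Slc7a6os (0.839), sample 2 in Azin2 (0.884) and Sesn2 (0.854), and sample 3 in Sms (0.847), at 7.42 against 7.83 to 7.91, and in Slc4a1 (0.836). Control sample 1 stood apart in its mean Spearman correlation to the rest (0.921), in the mean of the further Slc7 and Slc3 genes (0.944), and in Aldh9a1 (0.96), Sesn2 (0.841) and Cd4 (0.84). Without control sample 1 the difference of Slc7a2 was 0.83. Control sample 4 stood apart in Tie1 (0.892) and control sample 3 in the mean of the Schwann markers (0.883).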

How the results depend on the processing

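Slc7a2 was higher with ursolic acid in every alternative that kept the titled groups, at 0.62 to 0.93, and only regrouping by the description gave another sign (−0.16). Over the 10 carriers, 13 of 196 values under alternatives moved by 1 SD or more and 16 had the other sign, most of them in genes with a difference near 0. The number of rows passing an adjusted p of 0.05, 0 as reported, was 27 after rows under the median level were dropped, 12 with a variance trend and robust moderation, 1 without moderation, 23 with array weights and 20 at an adjusted p of 0.10. Slc7a2 was among them with low rows left out, with array weights and at 0.10, and no other carrier was in any; the same contrast had picked Slc7a2, so this is no test of it. Leaving out low rows kept 6 of the 10 carriers and made fewer tests; the cause of the other changes was not tested. Of the pathway genes, 1 passed (Smox) with low rows left out, with the variance trend, with array weights and at 0.10. Under median centring, quantile normalization, concordant labels, grouping by description, the description as a covariate and the fits within each description class (only these class fits were chosen after seeing the data), 0 rows passed, as with each sample left out (0 to 0). With the replicate number as a block, 0 rows passed and the Slc7a2 difference was 0.78 ± 0.10 (SE). In that limma fit 1478 rows had an unadjusted p below 0.05, against 1185 without the block. Residual correlations of same-numbered samples were all positive, at 0.018 to 0.186, but such samples also share a description. Samples of the same description with different numbers correlated at −0.0219 to 0.198, so number and description cannot be told apart here. The titles name no pairs, and the numbers were not taken as pairs. Each gene of the set has 1 row, so the mean of several rows could not be run. Signal over background is not given, so low rows cannot be told from undetected ones.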
